A study of Homo sapiens with 2 samples.

Results

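The genes described here make up an embryonic and fetal expression program of human blood cells. They are the let-7 antagonists LIN28B and LIN28A, the RNA-binding proteins IGF2BP1, IGF2BP2 and IGF2BP3, the imprinted genes IGF2, H19, DLK1 and MEG3, and the fetal globin repressor BCL11A. The 10 genes were chosen by symbol, with earlier results of these data known. Of them 9 were measured among the 32738 genes of the count matrix. H19 was not analysed here. The cells came from IPS11, an established human induced pluripotent stem cell line. CD34+ cells were enriched from its differentiating aggregates and cultured in endothelial to hematopoietic transition (EHT) medium, and the nonadherent cells were harvested on day 5. The 4 culture surfaces compared were an uncoated one, one coated with VCAM1 (an adhesion molecule), one coated with DLL4 (a Notch ligand), and one coated with both. The 3 wells of each surface were pooled before the cells were marked with a hashtag antibody, and all were run together in 1 single-cell RNA library. The labels used here do not tie hashtags 0252, 0253, 0254 and 0255 to a surface, so the 4 pools are described by hashtag number. With 1 library and 1 pool per hashtag there was no replicate, and no test between pools or cell groups was possible.

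The fetal and adult blood programs differ in a small set of regulators. LIN28B, an RNA-binding protein of embryonic and fetal progenitors, blocks the maturation of the let-7 microRNAs, which otherwise repress growth genes including IGF2BP1, IGF2BP3 and HMGA2. BCL11A, a zinc finger repressor, silences the fetal gamma globin genes in adult erythroid cells, and LIN28B is known to lower BCL11A protein by acting on its translation, which counts of RNA do not show. IGF2 and H19, and DLK1 and MEG3, are pairs of imprinted neighbours active in embryonic growth.

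Of 10836 barcodes, 8488 carried a call for a single hashtag, and 7550 of these had at most 36000 unique molecular identifiers (UMIs, counted molecules), 6000 genes and 18% mitochondrial UMIs. They held 142110950 UMIs, 28522216 to 40416478 per hashtag, with a median of 18319 per cell. Cells were sorted into gates by the genes of 1 lineage each, counted per 10000 UMIs of the cell: collagen (COL1A1, COL1A2 and COL3A1, at least 5), globin (8 globin genes, at least 20), PF4/PPBP (at least 10), C1Q (C1QA, C1QB and C1QC, at least 5) and ELANE (at least 5). Cells past none of these were placed by SPINK2 (at least 2) and then by at least 1 UMI each of CD34 and GATA2. The CD34/GATA2 gate held 2391 cells, SPINK2 730, C1Q 693, globin 287, collagen 91, ELANE 85 and PF4/PPBP 7, with 90 cells past several gates and 3176 past none. Genes not used for gating marked the ELANE, C1Q, globin and collagen gates. MPO stood at 16014 UMIs per 1000000 UMIs of the gate (CPM) in the ELANE gate, CSF1R at 287 CPM in the C1Q gate, KLF1 at 101 CPM in the globin gate and TAGLN at 3256 CPM in the collagen gate. Genes looked at to check the CD34/GATA2 gate were each higher in another gate. KIT was at 8.83 CPM in it and 11.7 CPM in SPINK2, and MYB at 60.2 CPM and 150 CPM in ELANE. CYTL1 was at 225 CPM in it and 288 CPM in globin, and SPN at 293 CPM and 508 CPM in ELANE. Some markers went against a name. FLT3 was at 0.76 CPM in the SPINK2 gate, AHSP, an erythroid chaperone, at 2.90 CPM in the globin gate, and DCN, a fibroblast gene, at 6.51 CPM in the collagen gate, so the gates are called by their genes only. The PF4/PPBP threshold was passed by 80 cells, but only 7 of them passed no other. The PF4/PPBP gate, with these 7 cells, was too small for its levels to be compared. In the 90 cells past several gates PLEK stood at 1319 CPM, LIN28B at 33.0 CPM, BCL11A at 12.3 CPM and DLK1 at 1042 CPM. Levels are in CPM with exact Poisson 95% intervals, shares have exact Clopper-Pearson 95% intervals, and both cover counting error only.

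LIN28B (GRCh37 chr6:105384491-105531207, plus strand) was present in every gate. Its 6237 UMIs lay in 51.4% of the kept cells, at 43.9 CPM. By gate the level was 70.5 CPM (55.6 to 88.1) in ELANE, 44.8 CPM (41.5 to 48.4) in SPINK2, 41.7 CPM (39.96 to 43.6) in CD34/GATA2, 36.9 CPM (32.1 to 42.1) in globin, 31.3 CPM (27.9 to 35.1) in C1Q and 21.0 CPM (14.04 to 30.1) in collagen. The highest gate among the blood gates was 2.25 times the lowest (1.73 to 2.90), while SPINK2 and CD34/GATA2, CD34/GATA2 and globin, and globin and C1Q were neighbours with overlapping intervals. The cells past no gate stood at 48.7 CPM. LIN28B was thus spread across the blood gates, with none of them near 0. The collagen gate stood at 0.51 times the blood gates together (0.34 to 0.73).

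The share of mitochondrial UMIs differed between gates. Its median was 9.68% in the ELANE gate, where LIN28B was highest, and 9.93% in the collagen gate, where it was lowest, against 13.9% in CD34/GATA2 and 13.6% in C1Q. In cells with at most 10% mitochondrial UMIs, LIN28B was at 84.1 CPM (61.3 to 113) in ELANE, 58.1 CPM (48.0 to 69.6) in CD34/GATA2 and 41.0 CPM (26.8 to 60.1) in C1Q. Above 10% it was at 57.5 CPM (39.3 to 81.1), 41.1 CPM (39.3 to 42.9) and 30.7 CPM (27.2 to 34.5). The intervals of ELANE and CD34/GATA2 overlapped within each of these classes, and those of CD34/GATA2 and C1Q were apart above 10% only. The part of the mitochondrial share in the LIN28B levels was not tested. Per 1000000 non-mitochondrial UMIs the order of the gates was as before, from 78.5 in ELANE through 51.2 in SPINK2, 48.3 in CD34/GATA2 and 42.8 in globin to 36.2 in C1Q.

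LIN28A (chr1:26737308-26756219, plus strand), the paralog best known from pluripotent cells, was close to absent, with 151 UMIs in 1.76% of the cells. It was at 21.7 CPM in the collagen gate, where 30 of the UMIs lay, and at 0.99 CPM in the blood gates together, a ratio of 21.8 (13.9 to 33.6). In the blood gates the level was 2.73 CPM in globin, 1.15 CPM in CD34/GATA2, 0.92 CPM in ELANE (1 UMI), 0.28 CPM in SPINK2 and 0.10 CPM in C1Q (1 UMI). The paralogs therefore had opposite positions, with LIN28B lowest and LIN28A highest in the collagen gate.

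**Figure D1:**
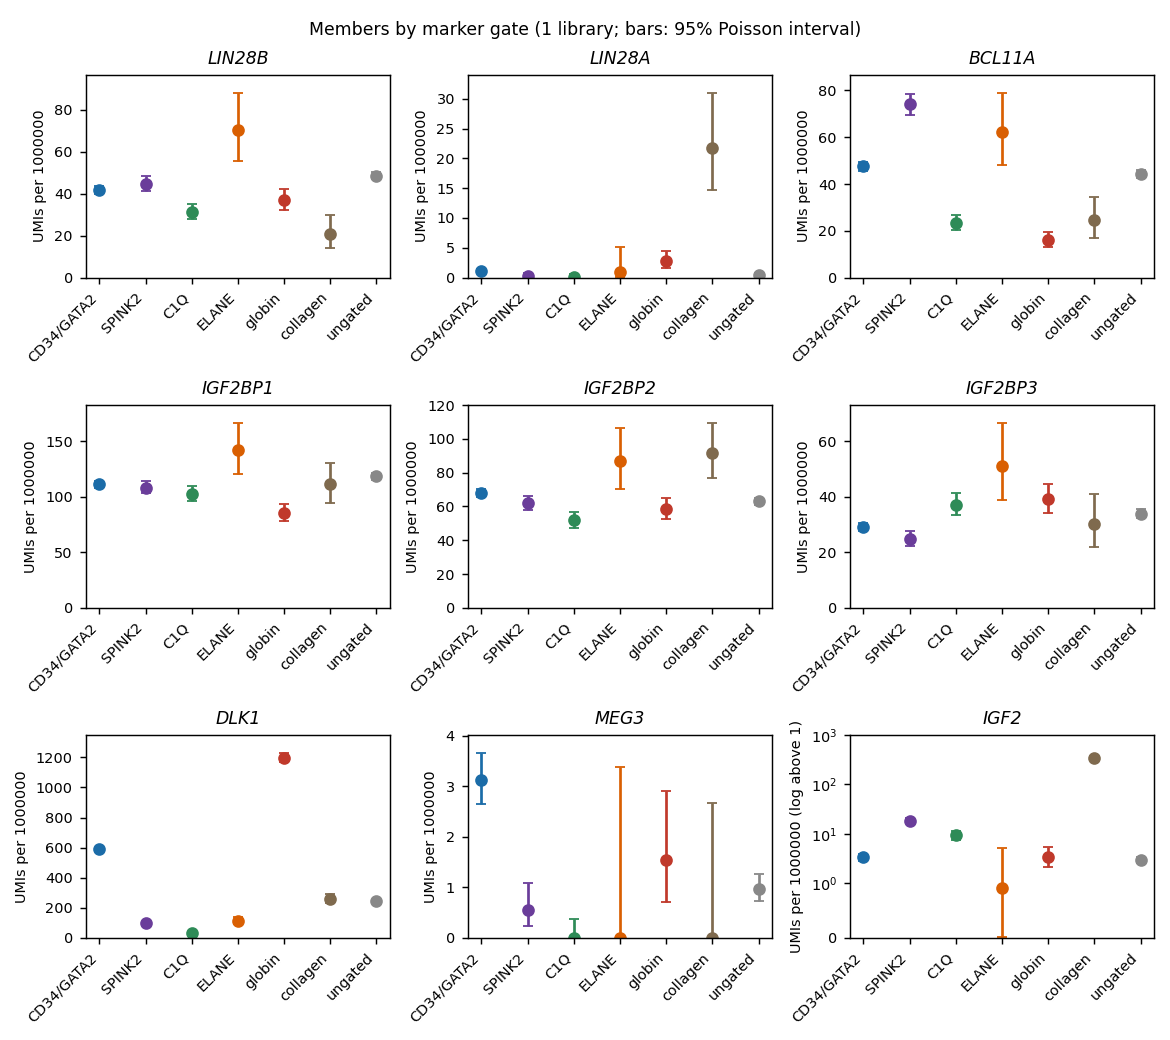
Levels of the 9 measured genes in 6 gates and in ungated cells, in UMIs per 1000000 UMIs on linear axes (IGF2 on an axis that is log above 1), with exact Poisson 95% intervals for counting error only. LIN28B and the 3 IGF2BP genes differ less between gates than the others, while DLK1 spans 35.8 to 1198 CPM in the blood gates and IGF2 reaches 336 CPM in the collagen gate.

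The let-7 microRNAs that LIN28B acts on share the seed that pairs with a target. RefSeq (GRCh38.p14) lists 12 let-7 and miR-98 gene copies that give 9 mature forms, all with the same bases 2 to 8. The forms let-7a, let-7d, let-7g and miR-98 are shown as examples, with bases 2 to 8 in capitals. The target sites printed with the genes below are complementary to these bases. The library does not count mature microRNAs.
hsa-let-7a-5p: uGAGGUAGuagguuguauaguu
hsa-let-7d-5p: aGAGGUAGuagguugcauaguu
hsa-let-7g-5p: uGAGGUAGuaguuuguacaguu
hsa-miR-98-5p: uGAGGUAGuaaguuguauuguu

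The complement of the seed, CTACCTC, was searched on the sense strand of the 3′ UTR of each gene's canonical transcript (GRCh37). It occurred 4 times in the 4552 bases of the LIN28B 3′ UTR, stop codon included, all in exon 4 of 4. Of 18649 genes, 9.67% hold at least 1 such site, and of the 1592 genes with a 3′ UTR of like length 0.19% hold as many as LIN28B. The 4 LIN28B sites are shown with the match in capitals.
LIN28B chr6:105526688-105526709, plus strand: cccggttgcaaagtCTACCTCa
LIN28B chr6:105529115-105529136, plus strand: actgatgatagtaaCTACCTCt
LIN28B chr6:105529297-105529318, plus strand: tttacagcaaaaggCTACCTCa
LIN28B chr6:105530736-105530757, plus strand: aatgatggtgttgaCTACCTCt

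IGF2BP1 holds 4 sites in 6704 bases, in exon 15 of 15, a number reached by 0.52% of the genes of like length. IGF2BP2, IGF2BP3 and LIN28A hold 1 each, in their last exons, as do 13.0%, 12.0% and 16.4% of genes of like length. No match was found in the 3′ UTRs of IGF2, DLK1 and BCL11A. A match is a description of sequence, not of binding. The 4 IGF2BP1 sites and the single sites of its paralogs and of LIN28A were as follows.
IGF2BP1 chr17:47128424-47128445, plus strand: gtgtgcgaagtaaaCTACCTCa
IGF2BP1 chr17:47131061-47131082, plus strand: agcagtgctagtaaCTACCTCa
IGF2BP1 chr17:47131715-47131736, plus strand: tataaatggattaaCTACCTCa
IGF2BP1 chr17:47132360-47132381, plus strand: cacttttgttttatCTACCTCt
IGF2BP2 chr3:185362008-185362029, minus strand: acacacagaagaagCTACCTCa
IGF2BP3 chr7:23351414-23351435, minus strand: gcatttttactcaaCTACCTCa
LIN28A chr1:26753840-26753861, plus strand: cacagcctattgaaCTACCTCa

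The 3 IGF2BP genes, whose proteins bind and stabilise growth-related mRNAs, were counted in every gate. IGF2BP1 (chr17:47074747-47133507, plus strand) was in 81.3% of the cells at 112 CPM, IGF2BP2 (chr3:185360918-185542830, minus strand) in 65.6% at 64.0 CPM, and IGF2BP3 (chr7:23349828-23510110, minus strand) in 41.5% at 31.9 CPM. IGF2BP1 was at 142 CPM in ELANE, 111 CPM in CD34/GATA2, 111 CPM in collagen, 108 CPM in SPINK2, 103 CPM in C1Q and 85.2 CPM in globin. Its highest blood gate was 1.67 times its lowest (1.38 to 2.00). IGF2BP2 ranged from 51.8 CPM in C1Q to 87.0 CPM in ELANE, a ratio of 1.68 (1.33 to 2.09), and was at 91.8 CPM in collagen. IGF2BP3 had another order, with 51.3 CPM in ELANE, 39.3 CPM in globin and 37.2 CPM in C1Q. Below these lay CD34/GATA2, at 29.1 CPM, and SPINK2, at 25.0 CPM. For IGF2BP3 the highest blood gate was 2.05 times the lowest, and collagen was at 30.4 CPM. IGF2BP3 was the member of the family that was lower in the CD34/GATA2 gate than in the C1Q gate, with a ratio of 0.78 (0.70 to 0.88), against 1.08 (1.01 to 1.16) for IGF2BP1 and 1.31 (1.20 to 1.45) for IGF2BP2. Summed, the 3 genes stood at 208 CPM (204 to 212) in CD34/GATA2 and 192 CPM (183 to 201) in C1Q, a difference of 0.12 on the log2 scale (0.05 to 0.19).

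The CD34/GATA2 gate was set against each other gate on log2(CPM + 1), with a 2-fold difference counted where a gene reached 5 CPM over all kept cells. Of the 9 measured genes 7 reached it, MEG3 and LIN28A did not, and 9737 genes did in all. IGF2, at 8.49 CPM, reached it only through the collagen gate and 18 cells with endothelial markers, described below. Without both kinds of cells it stood at 1.88 CPM. The calls of IGF2, here and by hashtag, are thus a description of few cells. Against C1Q, DLK1 was higher and IGF2 lower, so 1 of 7 lay in each direction, beside 9.08% of all genes tested higher and 8.58% lower. LIN28B differed by 0.40 (0.23 to 0.58) and BCL11A by 0.997 (0.80 to 1.20), just under the 2-fold limit. Against SPINK2, DLK1 was again higher and IGF2 lower, beside 2.78% and 1.83% of all genes. Against ELANE, DLK1 and IGF2 were higher, beside 9.11%, with 0 of 7 lower beside 8.53%, and the IGF2 call rested on 1 UMI in the ELANE gate. Against globin, BCL11A was higher and DLK1 lower, beside 4.41% and 2.77%. Against collagen, DLK1 was higher and IGF2 lower, beside 13.1% and 10.1%. By point value LIN28B and the 3 IGF2BP genes were within 2-fold in all 5 comparisons, and the genes past it were DLK1, IGF2 and BCL11A. Some intervals of the former reached past 2-fold. They were those of LIN28B against collagen, 0.96 (0.45 to 1.53), and against ELANE, -0.74 (-1.06 to -0.40). That of IGF2BP3 against ELANE, -0.80 (-1.17 to -0.40), did so too. These comparisons share the cells of the CD34/GATA2 gate.

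A wider list of 20 genes of let-7 processing and let-7 targets was set against the same gates. Against C1Q, 5 of the 20 were at least 2-fold higher in CD34/GATA2 and 1 was lower, beside the 9.08% and 8.58% of all genes, with a median difference of 0.46 on the log2 scale against 0.13 for all genes tested. MYCN, a MYC family factor, stood at 66.0 CPM against 4.55 CPM, a log2 difference of 3.59, and MYC differed by 1.80, while ARID3A differed by -1.01, with 190 CPM in C1Q. Against collagen, 6 were higher and 3 lower, beside 13.1% and 10.1%, with a median of 0.36 against 0.17. The lower genes were led by CCND1 (cyclin D1), at 555 CPM in collagen against 10.6 CPM, and by HMGA2, a chromatin protein and let-7 target, at 255 CPM against 25.0 CPM. Against ELANE 2 were higher and 4 lower, beside 9.11% and 8.53%. Against SPINK2 1 was higher and 0 lower, beside 2.78% and 1.83%, and against globin 1 and 1, beside 4.41% and 2.77%. HMGA2 holds 4 sites in 3002 bases of 3′ UTR, reached by 0.09% of genes of like length, and was lowest among the larger gates in globin (10.9 CPM) and C1Q (13.1 CPM).

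BCL11A (chr2:60677655-60781602, minus strand) differed more between gates than LIN28B did. It was counted in 46.0% of the cells, at 45.5 CPM. The level was 74.1 CPM (69.7 to 78.7) in SPINK2, 62.3 CPM (48.3 to 78.9) in ELANE, 47.7 CPM (45.8 to 49.6) in CD34/GATA2, 24.6 CPM (17.0 to 34.4) in collagen, 23.4 CPM (20.4 to 26.6) in C1Q and 16.05 CPM (13.0 to 19.6) in globin. The SPINK2 gate was 4.62 times the globin gate (3.74 to 5.76) and 3.17 times the C1Q gate (2.74 to 3.67). SPINK2 and ELANE, and ELANE and CD34/GATA2, were neighbours with overlapping intervals. BCL11A was therefore highest in the SPINK2 gate and lowest in the cells that carried most globin RNA. In cells above 10% mitochondrial UMIs the levels were 72.0 CPM in SPINK2, 47.1 CPM in CD34/GATA2, 23.6 CPM in C1Q and 15.9 CPM in globin.

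Beside LIN28B, BCL11A gave 1.65 UMIs per LIN28B UMI (1.498 to 1.82) in SPINK2, 1.14 (1.08 to 1.21) in CD34/GATA2, 0.88 (0.63 to 1.24) in ELANE, 0.75 (0.63 to 0.89) in C1Q and 0.44 (0.34 to 0.56) in globin. Transcript length and capture differ between the genes, so only the change of this ratio between gates is read. With the hashtags pooled, the intervals of SPINK2, CD34/GATA2, C1Q and globin did not overlap each other. By hashtag, those of CD34/GATA2 and C1Q were apart in 0253 and overlapped in 0252, 0254 and 0255. In C1Q the ratio was 0.71, 0.41, 0.88 and 1.17 in hashtags 0252 to 0255. Outside the PF4/PPBP gate no gate had one gene in place of the other, since both were counted in each of the other 6 gates. The 7 cells of the PF4/PPBP gate held 7 LIN28B UMIs and 0 BCL11A UMIs, too few to compare. In single cells a BCL11A UMI was found in 50.9% (49.3 to 52.5) of the 3884 cells with a LIN28B UMI and in 40.8% (39.2 to 42.4) of the 3666 cells without one. The former cells were deeper, with a median of 20157 UMIs against 16453. After thinning to 5000 UMIs per cell, which left 7482 cells, the shares were 19.2% (17.2 to 21.3) and 18.1% (17.2 to 19.1), with overlapping intervals. At this depth no association of the genes in single cells was detectable. Within the SPINK2 gate the thinned shares were 30.7% (23.4 to 38.7) and 29.9% (26.2 to 33.9), and within C1Q 7.61% (3.11 to 15.1) and 9.91% (7.61 to 12.6).

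**Figure D2:**
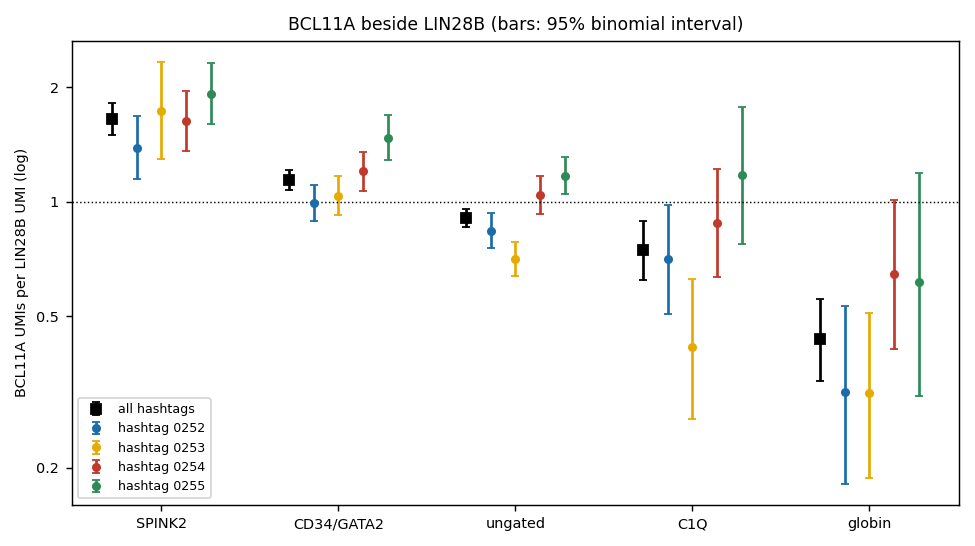
BCL11A UMIs per LIN28B UMI by gate (squares) and by hashtag (circles), on a log axis, with exact 95% intervals for counting error. The ratio is 1.65 in SPINK2 and 0.44 in globin, and within CD34/GATA2 it runs from 0.99 in hashtag 0252 to 1.48 in hashtag 0255.

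The globin genes in use change with developmental stage, and their shares were taken in the globin gate. These genes chose the gate, so their shares within it are a description. Of the 99314 globin UMIs of the gate, 61.0% were gamma (HBG1 and HBG2, the fetal chains) and 19.5% were HBE1 and HBZ (the embryonic chains). HBD gave 16.3% and HBB, the adult beta chain, 0.14%. By single gene, HBE1 stood at 5.24% and HBZ at 14.2%. Among the alpha-type chains the embryonic HBZ was therefore above HBA1, at 2.35%, and HBA2, at 0.66%. HBD was found in 98.6% of the cells of the gate and was not assigned to a stage here. HBB UMIs came to 0.23% of gamma UMIs. HBG1 and HBG2, and HBA1 and HBA2, are near-identical pairs whose reads cannot be fully told apart. Whether reads shared by a pair were lost from the counts was not tested. The place of HBZ above HBA1 and HBA2 thus holds for counted UMIs only. Gamma was the main class in each hashtag, at 53.9%, 59.7%, 65.1% and 61.7% in hashtags 0252 to 0255, and HBB was at most 0.26%. Of the embryonic chains, HBE1 was at 11.5%, 3.26%, 4.96% and 1.52% and HBZ at 4.56%, 11.6%, 18.7% and 20.2% of globin UMIs in the same order. HBE1 was found in 30.3% of the cells of the gate and lay in few of them, with 1767 of its 5208 UMIs in 1 cell of hashtag 0254. Without the cell with most HBE1 in each hashtag its shares were 6.98%, 2.53%, 0.58% and 0.69%, and without that with most HBZ the HBZ shares were 3.30%, 10.1%, 17.96% and 20.9%. BCL11A in this gate was at 10.8 CPM (6.6 to 16.6), 11.6 CPM (7.4 to 17.4), 24.8 CPM (17.3 to 34.5) and 26.2 CPM (15.0 to 42.5). Hashtags 0254 and 0255 thus held more BCL11A per UMI, a larger gamma share and a larger HBZ share than 0252 and 0253, from 65 and 31 cells against 89 and 102. KLF1 in this gate was at 53.8, 57.1, 194 and 169 CPM in hashtags 0252 to 0255. HBD was at 28.2%, 21.4%, 8.05% and 13.4% of globin UMIs. The cells of the gate were thus not alike between hashtags, and the part of this in the levels was not tested. The BCL11A intervals of 0254 and 0255 overlapped that of 0253, and that of 0255 also overlapped that of 0252.

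Of 16 other factors known to silence gamma globin or to work with BCL11A, 13 reached 5 CPM. Against C1Q, 4 of the 13 were at least 2-fold higher in CD34/GATA2 and 0 lower, beside 9.08% and 8.58% of all genes, with a median log2 difference of 0.38 against 0.13 for all genes. KLF1, an erythroid activator, was at 20.05 CPM against 1.34 CPM, and MYB, a progenitor factor, at 60.2 CPM against 7.65 CPM. Against globin 1 was higher (MYB, 1.38 on the log2 scale) and 1 lower (KLF1, -2.27), beside 4.41% and 2.77%. Against SPINK2 2 were higher and 0 lower, led by KLF1 (2.31), beside 2.78% and 1.83%. Against ELANE 3 were higher and 2 lower, beside 9.11% and 8.53%, and against collagen 4 and 0, led by NFIX (2.82), beside 13.1% and 10.1%.

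DLK1 and MEG3 are neighbours on chromosome 14, expressed from the paternal and the maternal copy. DLK1 (chr14:101192042-101204561, plus strand), a membrane protein related to the Notch ligands and abundant in many fetal tissues, was the most counted member, with 54842 UMIs in 64.7% of the cells. Its level was 1198 CPM (1170 to 1226) in globin, 591 CPM (584 to 598) in CD34/GATA2, 262 CPM (235 to 290) in collagen, 114 CPM (95.3 to 136) in ELANE, 98.7 CPM (93.7 to 104) in SPINK2 and 35.8 CPM (32.1 to 39.8) in C1Q. The globin gate was 33.5 times C1Q (30.0 to 37.4), and CD34/GATA2 was 16.5 times C1Q (14.9 to 18.4) and 5.99 times SPINK2 (5.68 to 6.32). The cells past no gate stood at 245 CPM. DLK1 also differed with the mitochondrial share. In cells with at most 10% it was at 1358 CPM in globin (8 cells), 330 CPM in CD34/GATA2, 63.5 CPM in ELANE, 44.1 CPM in SPINK2 and 23.7 CPM in C1Q. Above 10% it was at 1194, 602, 163, 104 and 36.6 CPM in the same gates. The order of these gates was the same in both classes, and the part of the mitochondrial share in the DLK1 levels was not tested. DLK1 thus ran opposite to BCL11A between the globin and SPINK2 gates. In C1Q cells DLK1 stood at 9.27% of its level over all kept cells, while genes that C1Q cells should lack stood at 2.49% (HBG2) and 5.24% (HBG1) to 16.7% (COL1A1) and 18.9% (COL3A1) of theirs. DLK1 thus lay above the globins compared and below these collagen genes, while COL1A2 stood at 282%. The 1% of C1Q cells with most DLK1 held 46.8% of its UMIs there, with up to 47 in a cell. Whether DLK1 in C1Q cells was background was not tested.

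Within the CD34/GATA2 gate the cells were also divided by DLK1 itself, from the 239 with no DLK1 UMI to the 512 with at least 10 per 10000 UMIs. GATA1, an erythroid and megakaryocytic factor, was at 42.8 CPM in the former and 153 CPM in the latter, and KLF1 at 9.26 CPM and 22.1 CPM. MPO, the myeloid peroxidase, was at 729 CPM and 64.6 CPM. LIN28B was at 46.3 CPM (40.6 to 52.6) and 34.7 CPM (31.1 to 38.6), and BCL11A at 53.0 CPM (46.9 to 59.7) and 39.2 CPM (35.4 to 43.3). DLK1-rich CD34/GATA2 cells therefore had more GATA1 and less MPO, LIN28B and BCL11A per UMI than those without DLK1. Their median depth was 18212 UMIs against 20559, and its part in these levels was not tested.

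**Figure D3:**
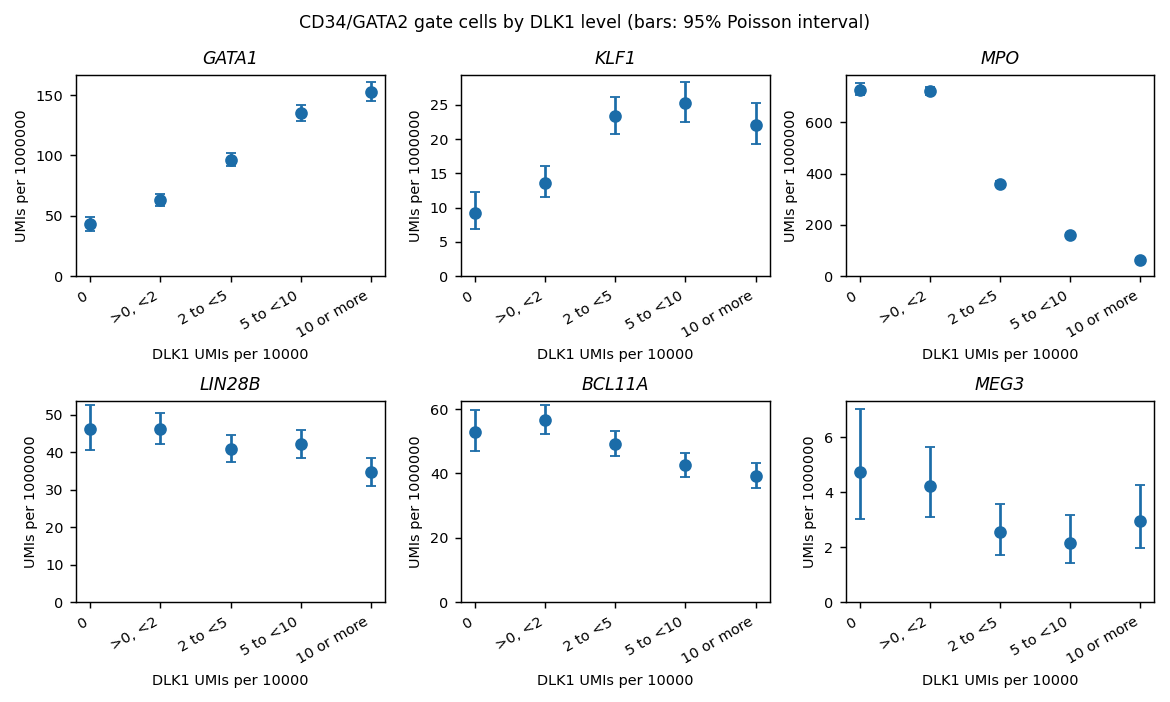
Levels of other genes in CD34/GATA2 cells divided by their own DLK1 UMIs per 10000, in CPM with exact Poisson 95% intervals. GATA1 runs from 42.8 to 153 CPM and MPO from 729 to 64.6 CPM between the lowest and the highest class, and LIN28B from 46.3 to 34.7 CPM.

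MEG3 (chr14:101245747-101327368, plus strand), a long noncoding RNA, was counted 235 times, in 1.91% of the cells. It was at 3.12 CPM in CD34/GATA2 (157 UMIs), 1.54 CPM in globin (9 UMIs) and 0.55 CPM in SPINK2 (8 UMIs). No UMI was found in C1Q, ELANE or collagen, where 3 counts, the limit that a count of 0 allows, would give 0.31, 2.75 and 2.17 CPM. CD34/GATA2 was 10.06 times the level that 3 counts would give in C1Q, a ratio without an interval, and 5.66 times SPINK2 (2.80 to 13.3). The ratio to globin was 2.03 (1.04 to 4.53), an order opposite to that of DLK1. The intervals of the levels, 2.65 to 3.65 CPM in CD34/GATA2 and 0.70 to 2.92 CPM in globin, overlapped. In globin 5 of the 9 UMIs lay in 1 cell, so the order of MEG3 between these gates is uncertain. Within CD34/GATA2, MEG3 was at 4.73 CPM (3.03 to 7.04) in cells with no DLK1 UMI and 2.97 CPM (1.99 to 4.26) in the DLK1-rich class, with overlapping intervals.

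IGF2 (chr11:2150342-2179621, minus strand), the fetal growth factor, was counted in few cells, with 1206 UMIs in 261 cells. It was at 336 CPM (306 to 368) in the collagen gate, in 76 of its 91 cells, and at 6.70 CPM in the blood gates together, a ratio of 50.2 (44.3 to 56.9). The blood gates stood at 18.4 CPM in SPINK2, 9.41 CPM in C1Q, 3.41 CPM in globin, 3.34 CPM in CD34/GATA2 and 0.92 CPM in ELANE. The SPINK2 and C1Q levels rested on few cells. In the SPINK2 gate 2 cells, with 124 and 108 UMIs, held 232 of 266, and in the C1Q gate 1 cell held 84 of 91. The 2-fold calls of IGF2 against SPINK2 and C1Q are thus calls about 3 cells.

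These cells carried endothelial genes. Of the 741 IGF2 UMIs outside the collagen gate, 477 (64.4%) lay in 18 cells with at least 3 UMIs of CDH5, KDR and CLDN5 together, a class set after IGF2 had been seen. IGF2 was found in 9 of the 18 and summed to 1493 CPM (1362 to 1633), 4.44 times the collagen gate (3.90 to 5.05). This level rested on few cells, with single cells of 124, 84, 77 and 64 UMIs among them, and the intervals cover counting error only. The 18 cells also held GJA5, an arterial gap junction gene, at 266 CPM against 0.62 CPM in the other kept cells, EFNB2, an arterial ligand, at 282 against 4.92 CPM, and FN1 at 1305 against 13.7 CPM. SPN (CD43), a blood marker, was at 93.9 CPM against 258 CPM, and COL1A1 at 3.13 against 19.2 CPM. Their LIN28B, 43.8 CPM (24.0 to 73.5), and IGF2BP1, 138 CPM (100 to 185), had intervals that included the levels of the other cells, 43.9 and 112 CPM. Those of IGF2BP2, 106 CPM (73.7 to 149), and IGF2BP3, 62.6 CPM (38.2 to 96.7), lay above the other cells, at 63.9 and 31.8 CPM. Without the 18 cells IGF2 was at 2.35 CPM (1.63 to 3.29) in SPINK2, 1.61 CPM (1.28 to 2.01) in CD34/GATA2 and 0.73 CPM (0.29 to 1.49) in C1Q, and the collagen gate was 191 times the blood gates (158 to 232). The other cells of the blood gates were thus low in IGF2, with the globin gate highest at 3.43 CPM (2.09 to 5.30).

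**Figure D4:**
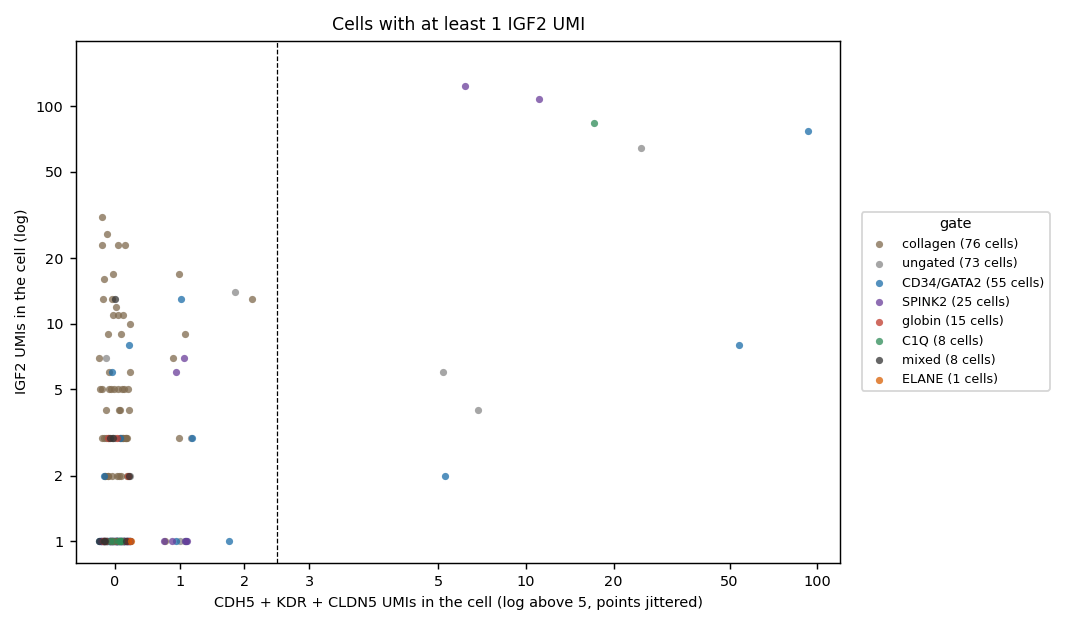
IGF2 UMIs per cell against the summed UMIs of CDH5, KDR and CLDN5, for the 261 cells with IGF2, coloured by gate. The x axis is linear to 5 and log above, with small random offsets, and the y axis is log. The cells with 64 to 124 IGF2 UMIs outside the collagen gate each hold at least 6 endothelial marker UMIs, and collagen cells hold up to 31 IGF2 UMIs.

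Of 14 other imprinted growth genes, 8 reached 5 CPM. Against C1Q 3 of the 8 were higher in CD34/GATA2 and 1 lower, beside 9.08% and 8.58% of all genes, with a median log2 difference of 0.47 against 0.13. MEST was at 51.1 CPM against 13.96 CPM and GRB10 at 27.4 CPM against 8.48 CPM, while IGF2R, the receptor that clears IGF2, was at 7.16 CPM against 19.4 CPM. Against collagen 1 was higher and 3 lower, beside 13.1% and 10.1%, with MEST at 418 CPM and IGF2R at 53.5 CPM in the collagen gate. Against SPINK2 2 were higher and 0 lower, beside 2.78% and 1.83%, led by CDKN1C, a cell cycle inhibitor, at 206 CPM against 40.8 CPM. Against globin 0 of 8 lay past 2-fold in either direction, beside 4.41% and 2.77%, and against ELANE 1 and 1, beside 9.11% and 8.53%.

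By hashtag, LIN28B was nearly level over all kept cells and in the CD34/GATA2 gate. Over all kept cells it was at 44.7, 45.3, 42.5 and 42.4 CPM in hashtags 0252, 0253, 0254 and 0255, and in the CD34/GATA2 gate at 41.9 (38.7 to 45.2), 42.3 (38.9 to 45.9), 40.6 (37.3 to 44.2) and 42.3 CPM (38.0 to 46.8). The highest was 1.07 and 1.04 times the lowest, and the 4 intervals in the gate overlapped. In C1Q the levels were 32.3, 31.9, 32.6 and 27.0 CPM, in globin 33.9, 36.9, 38.3 and 42.6 CPM, and in SPINK2 48.8, 36.1, 47.6 and 42.6 CPM, again with overlapping intervals. In CD34/GATA2 the highest hashtag exceeded the lowest by 0.06 on the log2 scale (-0.11 to 0.23). Such an interval was not computed in the other gates. Overlapping intervals do not exclude a difference there, such as that between 48.8 and 36.1 CPM in SPINK2. In the 88 CD34/GATA2 cells with at most 10% mitochondrial UMIs, hashtag 0255 was at 94.6 CPM and 0254 at 44.4 CPM, a log2 difference of 1.08 (0.27 to 1.89). For this difference and the 0.06 above, the highest and lowest of 4 hashtags were picked by their levels. The intervals do not take this choice into account. IGF2BP1, IGF2BP2 and IGF2BP3 spanned 1.05, 1.098 and 1.26 times over all kept cells. In the globin gate IGF2BP1 was at 69.4 (58.0 to 82.5), 77.8 (66.0 to 91.1), 109 (92.1 to 127) and 103 CPM (79.2 to 132), so that its level in hashtag 0254 lay above both 0252 and 0253 beyond counting error.

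BCL11A was not level. It was at 41.3, 37.6, 49.0 and 57.6 CPM over all kept cells, where the highest hashtag was 1.52 times the lowest, and in the CD34/GATA2 gate at 41.6 (38.4 to 44.97), 43.95 (40.5 to 47.7), 48.9 (45.2 to 52.8) and 62.3 CPM (57.2 to 67.9), a ratio of 1.49. A difference of at least 1.5 times was counted, and over all kept cells 2 of the 7 genes reached it, BCL11A and IGF2, beside 6.14% of all genes tested. With each hashtag weighted to the same gate makeup the BCL11A ratio was 1.43, so this count was lost. Hashtag 0255 was highest in CD34/GATA2, SPINK2 (82.0 CPM), C1Q (31.7 CPM) and globin (26.2 CPM), and 0252 or 0253 was lowest in each. In CD34/GATA2 its interval did not overlap those of the other hashtags. BCL11A per LIN28B UMI in that gate was 0.99, 1.04, 1.20 and 1.48. With 1 pool per hashtag, a difference between surfaces and one between pools cannot be told apart.

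**Figure D5:**
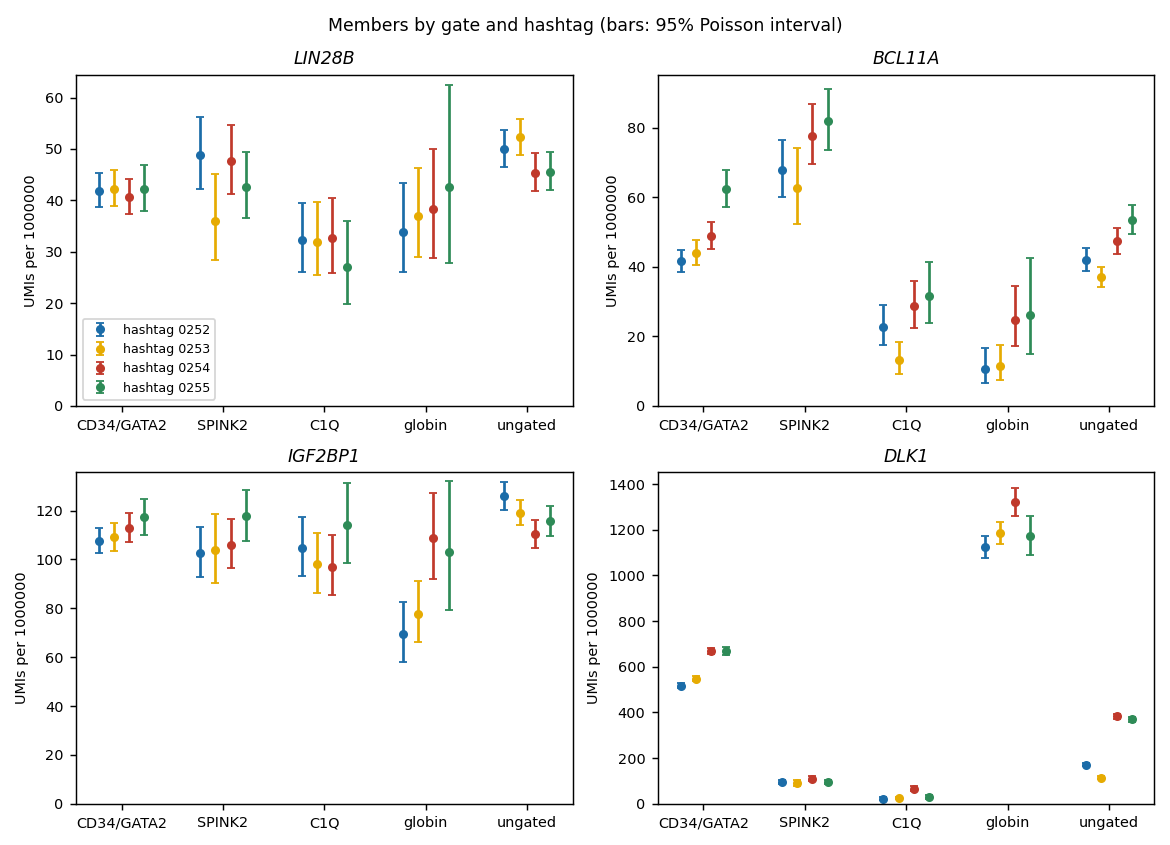
Levels of LIN28B, BCL11A, IGF2BP1 and DLK1 by gate and hashtag in CPM, with exact Poisson 95% intervals for counting error, where each hashtag is 1 pool of 3 wells. In CD34/GATA2 cells LIN28B lies between 40.6 and 42.3 CPM in the 4 pools, while BCL11A runs from 41.6 to 62.3 CPM.

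DLK1 was at 342, 330, 472 and 420 CPM over all kept cells, a ratio of 1.43, and at 518, 548, 668 and 670 CPM in the CD34/GATA2 gate, a ratio of 1.29. At the same gate makeup the ratio was 1.54, and 2 of the 7 genes, DLK1 and IGF2, reached 1.5 times there beside 5.07% of all genes. The spread was wide in cells past no gate, at 171 (164 to 177), 114 (109 to 119), 383 (372 to 394) and 370 CPM (359 to 380). It lay in the cells of this group with a GATA2 UMI, where DLK1 was at 345, 216, 996 and 1001 CPM, against 139, 92.7, 124 and 120 CPM in those without. Such GATA2 cells made up 14.8%, 17.7%, 33.6% and 32.1% of the ungated cells, and they differed in other genes too. CLC, a basophil and eosinophil gene, was at 1491, 1314, 333 and 318 CPM in them, and MPO at 3849, 3045, 473 and 473 CPM. Hashtags 0254 and 0255 therefore had more GATA2 cells outside the gates, with more DLK1 and less CLC and MPO than those of 0252 and 0253. The median depth of these ungated GATA2 cells was 17653, 18010, 15251 and 14535 UMIs in hashtags 0252 to 0255. The gate rule of at least 1 UMI each of CD34 and GATA2 was not adjusted for depth. The part of depth in these shares and levels was not tested.

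IGF2 by hashtag was at 2.97, 4.81, 15.0 and 13.3 CPM over all kept cells. The collagen gate held 11, 11, 17 and 52 cells of the hashtags, and the endothelial-marker cells carried 6, 85, 316 and 70 of the IGF2 UMIs. Without both kinds of cells the levels were 1.97, 1.81, 1.75 and 2.01 CPM. The spread of IGF2 between pools was therefore that of few collagen and endothelial-marker cells, and the remaining cells differed little. In the CD34/GATA2 gate 1 of the 7 genes reached 1.5 times, beside 6.14% of all genes. It was IGF2, whose 7.86 CPM in hashtag 0253 rested mostly on 1 cell with 77 UMIs.

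The pluripotency list was split. POU5F1 was at 0.07 CPM, NANOG at 0.21 CPM and TDGF1 at 0.01 CPM over all kept cells, and SOX2 at 3.41 CPM, with 14.6 CPM in the SPINK2 gate. Of 8 genes of this list 3 reached 5 CPM, namely DNMT3B at 80.9 CPM, TERF1 at 56.8 CPM and DPPA4 at 27.9 CPM over all kept cells. Against C1Q 1 of these was higher and 0 lower, beside 9.08% and 8.58% of all genes. That gene was DNMT3B, a DNA methyltransferase of early embryonic cells, at 159 CPM in SPINK2, 90.6 CPM in CD34/GATA2, 50.4 CPM in globin and 16.1 CPM in C1Q. LIN28B was thus counted in cells whose POU5F1 and NANOG lay below 1 CPM.

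The genes whose pattern over gates and hashtags was most like that of LIN28B were ZNF770 (Pearson r of 0.94), EMB, HNRNPK, ATP5A1 and EIF4G1 (0.93 each), and for BCL11A they were TARBP1 (0.98), THOP1 (0.95), WDR60 (0.94), HSPBP1 and NOC2L (0.93 each). The r was taken across 18 gate by hashtag groups of at least 20 cells, all of 1 library, among 5529 genes of at least 20 CPM, so the groups share depth and gate makeup and no p is given. EMB had a steeper pattern than LIN28B, at 76.0 CPM in ELANE and 6.52 CPM in C1Q. TARBP1 followed BCL11A at a lower level, with 35.9 CPM in SPINK2, 27.9 CPM in CD34/GATA2, 17.0 CPM in C1Q and 12.0 CPM in globin.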

How the data were processed

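The UMI counts were used as deposited by the authors, who aligned and counted the reads of 1 droplet library (3′ end capture) with Cell Ranger 6.0.1 against hg19; the same run gave the hashtag calls per barcode. Whole-number UMI counts of 32738 genes in 10836 barcodes were read. Cells were kept with 1 hashtag call and at most 36000 UMIs, 6000 genes and 18% MT- UMIs, limits taken from the study's methods. Barcodes called for several hashtags (1339) or none (1009) were left out, and Scrublet called 99 of the 8488 singly tagged cells (1.17%), 63 of them kept. No barcode was repeated.

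Counts were summed per gate and hashtag and divided by all UMIs of those cells, so a large class of RNA in a gate, such as mitochondrial UMIs, lowers every other gene there. Intervals are exact Poisson (levels), Clopper-Pearson (shares) and conditional binomial (ratios) at 95%. Log2 differences used CPM + 1, genes needed 5 CPM over all kept cells, and thinned counts were drawn at 5000 UMIs per cell. There were no replicates, so no p-values. The counting and calling steps were tested on simulated data. The named genes are the 10 members, at most the 2 largest folds in each direction of 4 wider lists, the globins, and the 5 genes most like LIN28B and BCL11A. The endothelial-marker class, its GJA5, EFNB2 and FN1 values, the DLK1 classes the GATA1, KLF1, MPO and CLC values in them, and the shares without the top HBE1 or HBZ cell were chosen after the values were seen. The members and lists were chosen with earlier results of these data known. Gene positions and 3′ UTRs are from the GRCh37 annotation and let-7 sequences from RefSeq (GRCh38.p14); the builds were not mixed. Analyses used Python 3.11.15, numpy 2.4.6, scipy 1.17.1, pandas 2.3.3 and scanpy 1.11.5. Alternatives tried were other gate thresholds, gates not exclusive, thinning, mean over cells, other mitochondrial, UMI and gene limits, Scrublet doublets removed, each hashtag left out, other folds and no CPM minimum.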

Additional observations from a re-analysis of the deposited data

Results flagged for a closer look

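The barcodes left out of the comparisons carried the genes too. The 1339 barcodes called for more than 1 hashtag had a median of 27367 UMIs and held LIN28B at 43.06 CPM (41.0 to 45.1), BCL11A at 49.59 CPM, DLK1 at 372.55 CPM and IGF2 at 29.23 CPM. Kept cells stood at 43.9, 45.5, 386 and 8.49 CPM, so that IGF2 was higher, BCL11A was a little higher and DLK1 a little lower, both with intervals apart, and LIN28B overlapped. Their place in single barcodes was not tested. The 1009 barcodes with no hashtag call had a median of 14456 UMIs and held LIN28B at 42.17 CPM, BCL11A at 57.38 CPM (53.5 to 61.4), DLK1 at 643.55 CPM (631 to 657) and IGF2 at 2.35 CPM. In these 1009 barcodes DLK1 and BCL11A were above, and IGF2 below, the kept cells. Neither set of barcodes was held to the UMI, gene and mitochondrial limits of the kept cells, so the sets differ in more than the hashtag call. These values were noted because they lie in data outside the comparisons and above the limit that a count of 0 allows.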

How the results depend on the processing

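LIN28B in CD34/GATA2 over C1Q kept its direction under 13 of 13 alternatives (0.34 to 0.52 on the log2 scale). With at most 10% MT- UMIs, which left 88 CD34/GATA2 cells, its highest hashtag exceeded its lowest by 1.08 in place of 0.06, BCL11A over C1Q was 1.53 in place of 0.997, the summed IGF2BP genes 0.22 in place of 0.12, and summed IGF2, DLK1 and MEG3 in collagen over the blood gates 1.42 in place of 0.30. The last was 0.20 with gates not exclusive, 0.13 after thinning, and 0.035 to 0.43 with a hashtag left out (0.43 without 0253, 0.035 without 0255, which held 52 of 91 collagen cells). BCL11A was 1.28 with thresholds doubled. The count of 2 genes past 2-fold against C1Q was 1 with gates not exclusive, with means over cells, with a fold of 3, and with the 18 endothelial-marker cells removed (added after seeing the data), and 2 to 3 with a hashtag left out. IGF2 turned from lower to higher against C1Q with thresholds halved, with at most 10% MT- UMIs and without hashtag 0254. With no CPM minimum the count against collagen was 4 in place of 2. Which hashtag was highest in LIN28B in CD34/GATA2 varied: 0253 over 0254 as reported, 0252 over 0253 with gates not exclusive. Of 81 values computed, 14 changed as named, and 67 moved less. Counts of genes were compared by number only, so the turns of IGF2 against C1Q lie among the 67. The cause of these changes was not tested. The PF4/PPBP gate was not run, having fewer than 20 cells. No paired analysis was possible because there is 1 library and 1 pool per hashtag. Depth limits MEG3 and LIN28A most, with 235 and 151 UMIs.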

Other observations

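Dispersion was not alike among the genes. BCL11A had 5 or more UMIs in 181 cells, with up to 16 in 1 cell, and LIN28B in 53 cells, with up to 9, where the genes stood at 45.5 and 43.9 CPM over all kept cells. DLK1 reached 103 UMIs and IGF2 124 UMIs in a cell. The 1% of cells with most UMIs of a gene held 6.12% of LIN28B, 8.53% of BCL11A, 9.34% of DLK1, 83.3% of IGF2, 71.1% of MEG3 and 62.3% of LIN28A UMIs.

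In the CD34/GATA2 gate, DLK1 was at 547 CPM (540 to 555) in the 1655 cells with an MPO UMI and 706 CPM (692 to 720) in the 736 without, at median depths of 21559 and 18066 UMIs. LIN28B was at 42.4 CPM (40.3 to 44.6) and 39.96 CPM (36.7 to 43.4) in the same cells. Cells with and without a KLF1 UMI had LIN28B at 42.0 and 41.6 CPM. IGF2-AS, the antisense neighbour of IGF2, had 8 UMIs in all kept cells.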
